A study of Rattus norvegicus with 2 samples.

Results

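The genes described here carry cells through mitosis: the kinases and cyclins that start it, the kinetochore and checkpoint proteins that attach chromosomes to the spindle and delay anaphase until all are attached, and the motors and microtubule proteins that build the spindle and divide the cell. A list of 36 such genes was measured in esophageal tissue of rats given OSU-HDAC42, an inhibitor of histone deacetylases, and of rats given vehicle. Members were taken by their gene symbol, with 1 probe set for each gene, the one with the highest mean over both arrays. In all, 33 of the 36 genes had a probe set annotated to them alone, out of 14217 such genes on the array. The other members, Nek2, Ndc80 and Tpx2, had none and were not analysed here.

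Both groups were male Sprague-Dawley rats bought at 5 to 6 weeks of age. Treated rats received 7 doses of 50 mg/kg OSU-HDAC42 by gavage, 350 mg/kg in total, and control rats received vehicle on the same plan. Esophagi were collected on day 15, 24 hours after the last dose, and RNA was hybridised to Affymetrix 230 2.0 rat arrays. Each group had 1 array. The labels do not say how many animals an array stands for, so no value here has an error between rats, and no difference was tested. They name Trizol for the RNA, the design text a column kit, and neither says which layers of the wall were taken.

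These genes are expressed mainly in cells between late S phase and cytokinesis. In the esophagus, a stratified squamous epithelium, such cells lie mainly in the basal layers, and the suprabasal cells above them have left the cell cycle. Outside cell division, a complex named DREAM keeps many of these genes off. DREAM binds a promoter element called the CHR, the cell cycle genes homology region, and in dividing cells the factors MYBL2 and FOXM1 act through the same element. Nearby CCAAT boxes bind the trimer NF-Y.

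In the OSU-HDAC42 sample 31 of the 32 members that reached the expression floor were higher than in the vehicle sample and 1 was lower. The floor, an intensity of 49.1 on the brighter array, is the median over probe sets. Psrc1, Stil and Mad2l1 reached it on the OSU-HDAC42 array alone, so that they could enter these counts only as higher. At least 1.5-fold higher were 21 members (65.6%), and 6 of them were at least 2-fold higher: Cenpp, Psrc1, Stil, Birc5, Melk and Cdca3. Among all 9561 genes above the floor, 46.7% were higher by any amount, 7.59% by at least 1.5-fold and 1.88% by at least 2-fold. None of the members was lower by 1.5-fold or by 2-fold, while 52.8% of all genes above the floor were lower by any amount, 10.9% by at least 1.5-fold and 3.18% by at least 2-fold. The median log2 difference, OSU-HDAC42 minus vehicle, was 0.77 over the 33 measured members and 0 over all 14217 genes. In a whole tissue, more cells in mitosis and more of these transcripts per cell cannot be told apart.

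The promoters of the members share letters that the choice of members did not use. RefSeq promoter windows of the GRCr8 assembly, from 250 bases before the annotated start to 50 after it, were found for 31 of the 36 members. The CHR was searched as TTTGAA or TTCGAA, the CCAAT box as CCAAT and the E2F site as TTTCCCGC, TTTCGCGC, TTTGCCGC or TTTGGCGC, each on both strands. A CHR was present in 19 of the 31 windows (61.3%), against 13.5% of the 8024 genes above the floor that had a window. A CCAAT box was present in 23 (74.2%, against 38.6%), and 2 or more of them in 17 (54.8%, against 14%). Both elements together were found in 16 windows (51.6%, against 5.78%). A match is a description of the letters and does not show that a factor binds there.

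The following 7 promoters are shown up to the base before the start, 5′ to 3′ on the strand of the gene. Psrc1, Stil and Birc5 are among the members with the largest differences. Prc1 and Ccnb2 hold both elements, Ccnb1 holds CCAAT boxes and no CHR match, and Cdk1 hardly differed between the arrays. Capitals mark CHR and CCAAT matches, and a CCAAT box on the other strand reads ATTGG.
Psrc1 (chr2:198710429-198710548, + strand): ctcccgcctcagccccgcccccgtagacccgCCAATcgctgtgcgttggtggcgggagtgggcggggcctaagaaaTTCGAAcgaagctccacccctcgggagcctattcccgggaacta
Stil (chr5:133757471-133757630, + strand): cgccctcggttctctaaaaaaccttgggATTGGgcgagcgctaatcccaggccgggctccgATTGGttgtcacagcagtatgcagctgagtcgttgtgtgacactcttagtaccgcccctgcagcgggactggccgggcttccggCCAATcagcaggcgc
Birc5 (chr10:103571896-103572145, + strand): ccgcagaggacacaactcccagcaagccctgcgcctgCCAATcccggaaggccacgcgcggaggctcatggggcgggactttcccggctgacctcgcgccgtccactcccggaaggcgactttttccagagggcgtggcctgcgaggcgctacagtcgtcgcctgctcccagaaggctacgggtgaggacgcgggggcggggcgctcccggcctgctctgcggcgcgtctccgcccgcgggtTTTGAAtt
Prc1 (chr1:143659361-143659480, + strand): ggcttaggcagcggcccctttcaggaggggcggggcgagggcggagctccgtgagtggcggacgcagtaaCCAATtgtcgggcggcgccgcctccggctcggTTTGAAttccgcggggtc
Ccnb1 (chr2:33655226-33655345, - strand): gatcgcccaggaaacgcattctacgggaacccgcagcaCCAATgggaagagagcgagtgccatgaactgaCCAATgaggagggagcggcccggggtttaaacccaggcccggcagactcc
Ccnb2 (chr8:79981659-79981818, - strand): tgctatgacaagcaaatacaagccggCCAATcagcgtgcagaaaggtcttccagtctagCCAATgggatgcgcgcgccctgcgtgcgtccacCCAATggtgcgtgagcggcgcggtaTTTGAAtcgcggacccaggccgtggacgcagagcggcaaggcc
Cdk1 (chr20:19265173-19265292, + strand): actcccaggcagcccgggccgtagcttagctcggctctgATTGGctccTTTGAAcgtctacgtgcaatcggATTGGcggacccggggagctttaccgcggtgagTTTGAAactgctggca

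Psrc1 has a CHR of the form TTCGAA that begins 44 bases before the start, and a CCAAT box that begins at -89. In Birc5 and Prc1 a TTTGAA begins 8 and 18 bases before the start. In Ccnb1 there is no match to the CHR letters, and the CCAAT boxes begin at -82 and -50. The promoter of Ccnb2 has 3 CCAAT boxes, at -134, -101 and -68, followed by a TTTGAA at -43. Stil has 3 CCAAT boxes, at -132, -99 and -15, and no CHR letters. The Cdk1 promoter holds both elements too, with TTTGAA at -72 and -16 and CCAAT boxes at -81 and -49, and it was the only member with an E2F match, at -133. Matches further up than the stretches shown were a CCAAT box of Prc1 at -239, a TTTGAA of Ccnb2 at -214 and a CCAAT box of Cdk1 at -210. Over all members, 8 of 32 neighbouring pairs of CCAAT boxes (25%) began 31 to 34 bases apart, against 9.73% of 1695 pairs in genes above the floor.

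**Figure D1:**
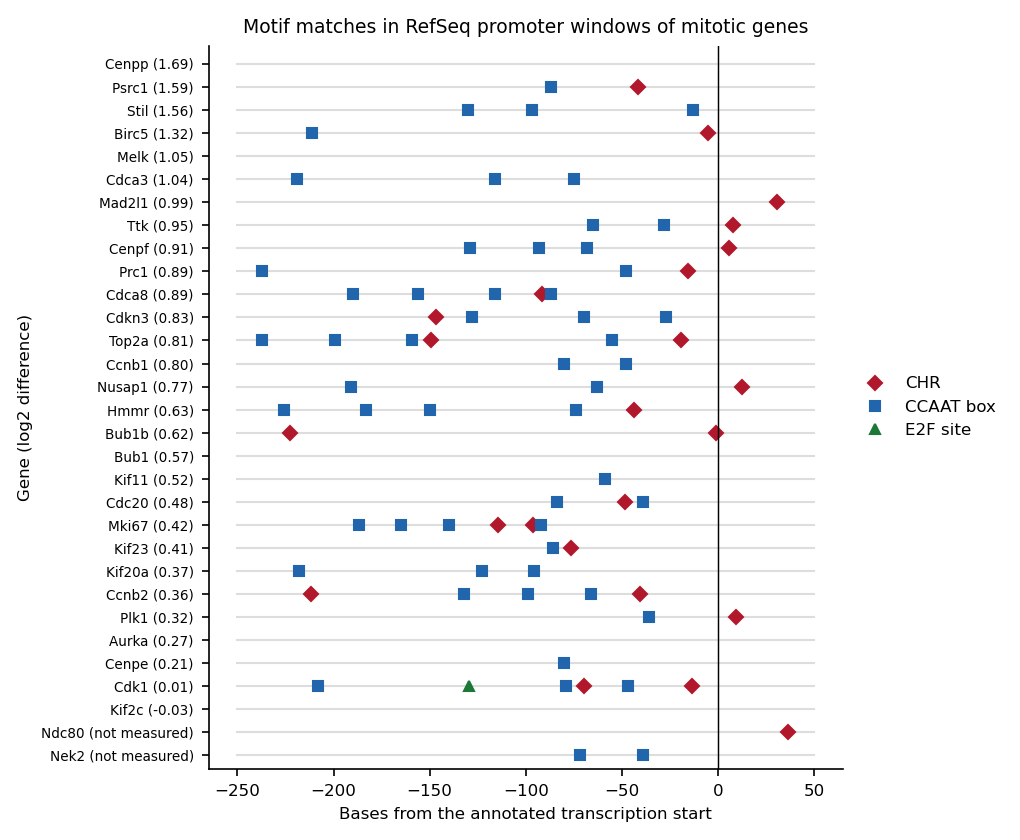
Positions of CHR (diamonds), CCAAT box (squares) and E2F (triangle) matches in the promoter windows of 31 mitotic genes, in bases from the annotated transcription start (x axis). Genes (y axis) are ordered by their log2 difference, given in brackets, from Cenpp at 1.69 to Kif2c at -0.032, then the genes not measured; the matches lie along the whole order, and Cenpp, Melk, Bub1, Aurka and Kif2c have none.

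Differences of members with and without a CHR overlapped over most of their range. Of the 18 members above the floor with a CHR, 12 were at least 1.5-fold higher and the median difference was 0.79. Of the 10 with a window and no CHR, 5 were at least 1.5-fold higher, with a median of 0.69. Over all genes above the floor, 8.98% with a CHR and 7.03% without one were at least 1.5-fold higher. Cenpp and Melk, both at least 2-fold higher, had neither element.

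Mitotic kinases, cyclins and their partners came first by role. Ccnb1 encodes cyclin B1, which activates CDK1 for entry into mitosis, and its intensity was 353 after OSU-HDAC42 against 202 after vehicle (1.75-fold; all pairs below are in this order). Its other probe set read 231 against 136, a log2 difference of 0.76 beside 0.80. Ccnb2, the other mitotic B cyclin, stood at 309 against 241 (1.28-fold). Ccna2, the cyclin of S phase and early mitosis, stood at 142 against 92.2 (1.54-fold). All 3 cyclins were thus higher in the treated sample, while 46.7% of all genes above the floor were higher.

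Their kinase did not follow them. Cdk1, the catalytic partner of these cyclins, read 182 against 181, a log2 difference of 0.011 from its only probe set. Plk1, the polo kinase of spindle assembly and mitotic exit, stood at 86.4 against 69.3 (1.25-fold), a small difference at a low intensity. Melk, a kinase highly expressed in dividing and progenitor cells, stood at 264 against 127 (2.07-fold). Cdkn3, a phosphatase that acts on CDK1 and CDK2, stood at 821 against 463 (1.77-fold). In this group of 7 measured genes the median difference was 0.63.

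Kinetochore and checkpoint members were all higher, with a median of 0.91 over 7 genes, while 46.7% of all genes above the floor were higher. Mad2l1 reached the floor on the OSU-HDAC42 array alone, so it could count only as higher. The largest difference of any member belonged to Cenpp, a protein of the inner kinetochore, at 651 against 202 (3.22-fold). In the RefSeq gene table the span of Cenpp also holds the matrix genes Ogn, Omd, Aspn and Ecm2. Ogn, which encodes osteoglycin, stood at 486 against 258 (0.91 on the log2 scale), Aspn differed by 0.39 and Ecm2 by 0.32, and Omd was below the floor. Whether signal from that region reaches the Cenpp probe set was not tested. Other members that overlap a measured gene were Cdca3, Kif11, Kif20a, Nusap1 and Aurka, and the genes they overlap, Usp5, Ide, Cdc23, Ndufaf1 and Fam210b, differed by -0.17 to 0.026.

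The checkpoint kinases and their effectors followed. Ttk, the kinase MPS1 that starts checkpoint signalling at unattached kinetochores, stood at 158 against 81.5 (1.94-fold). Mad2l1, which encodes the checkpoint effector MAD2, stood at 74.3 against 37.3 (1.99-fold). Its other probe sets, below the floor, differed by 0.66 and 1.25 in the same direction. Bub1 and Bub1b encode a kinase and a pseudokinase of the same checkpoint. Bub1 read 186 against 125 (1.49-fold), just short of the 1.5-fold line. Bub1b read 85.2 against 55.4 (1.54-fold), just past it. Cenpf, a large protein of the outer kinetochore, stood at 109 against 58.1 (1.88-fold). Cenpe, a kinesin that moves chromosomes to the spindle equator, stood at 65.5 against 56.5 (1.16-fold), the smallest difference of this group.

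The chromosomal passenger complex corrects faulty attachments and then acts in cytokinesis. Its 3 members measured here were all at least 1.5-fold higher, against 7.59% of all genes above the floor. Birc5, which encodes survivin, the subunit that brings the complex to centromeres, stood at 745 against 298 (2.5-fold). Cdca8, which encodes borealin, stood at 163 against 87.5 (1.86-fold). Aurkb, the kinase of the complex, stood at 200 against 111 (1.8-fold). Incenp, its scaffold, belongs to a further list and stood at 115 against 89.1, a log2 difference of 0.37. Aurka, the related kinase of centrosomes and spindle poles, stayed below the floor at 48.1 against 40, with a difference of 0.27.

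The anaphase-promoting complex is the ubiquitin ligase that ends mitosis. Its activator Cdc20 stood at 128 against 91.6 (1.39-fold), and a second probe set above the floor at 79.2 against 46.9. Ube2c, the ubiquitin-conjugating enzyme of the complex, stood at 210 against 137 (1.53-fold). Cdca3, an F-box-like protein that promotes entry into mitosis, stood at 394 against 191 (2.06-fold). All 3 genes of this role were higher, while 46.7% of all genes above the floor were higher.

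**Figure D2:**
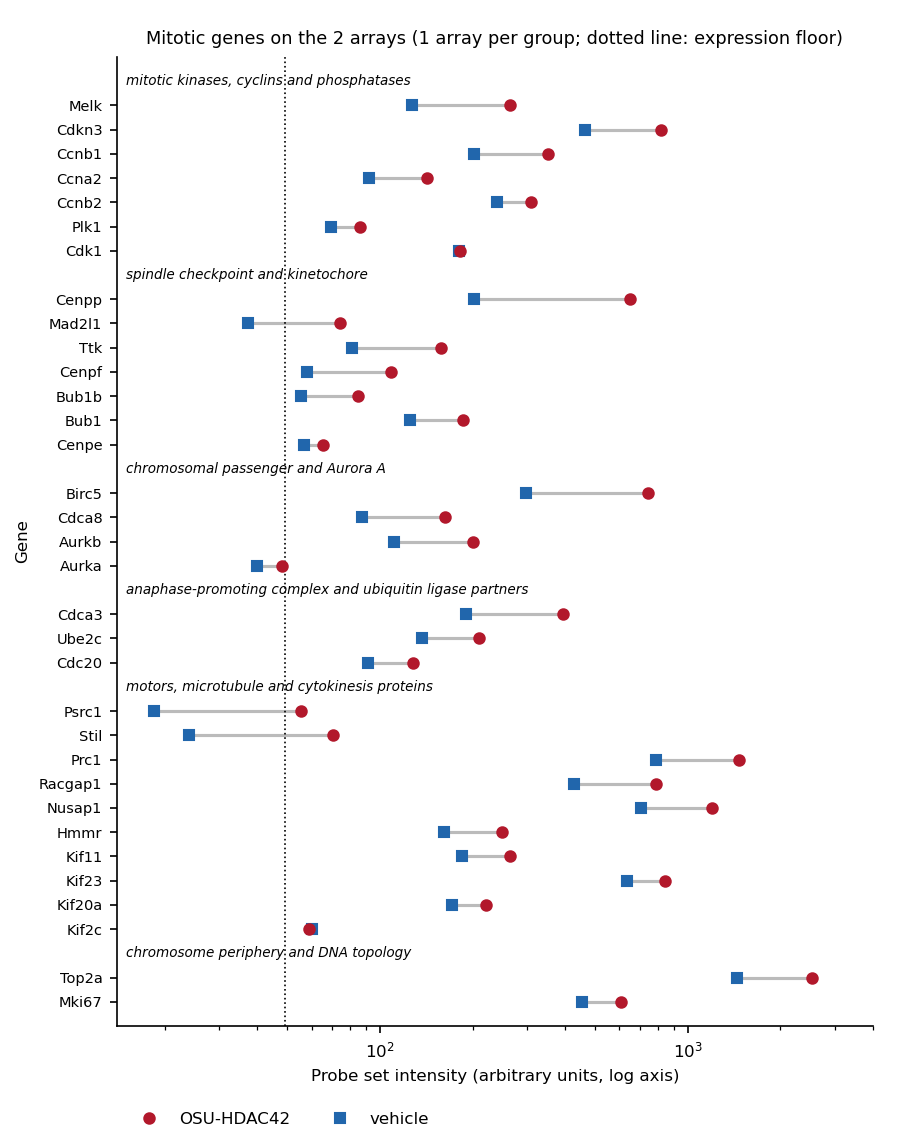
Intensity of each measured mitotic gene on the OSU-HDAC42 array (circles) and the vehicle array (squares), on a log axis, grouped by role, with 1 array for each group; the dotted line marks the floor of 49.1. The circle lies to the right of the square for every gene except Kif2c, where it lies slightly to the left, and for Cdk1 the symbols nearly coincide.

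Motor, spindle and cytokinesis members had a median difference of 0.70 over 10 genes, 9 higher and 1 lower. Among all genes above the floor, 46.7% were higher. Psrc1 and Stil reached the floor on the OSU-HDAC42 array alone, so they could count only as higher. The central spindle, the bundle of microtubules between separating chromosomes that positions the cleavage furrow, was represented by Prc1, Kif23 and Racgap1. Prc1, which bundles the microtubules, stood at 1465 against 792 (1.85-fold). Racgap1, a GTPase-activating protein of the centralspindlin complex, stood at 790 against 427 (1.85-fold). Kif23, the motor subunit of the same complex, stood at 841 against 634 (1.33-fold). All 3 were higher. Kif20a, a kinesin that moves the passenger complex to the central spindle, stood at 222 against 172 (1.29-fold).

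Other spindle genes followed a similar range. Kif11, the kinesin that pushes spindle poles apart, stood at 265 against 185 (1.43-fold). Nusap1, which crosslinks spindle microtubules near chromosomes, stood at 1196 against 703 (1.7-fold) and at 619 against 308 on its other probe set. Hmmr, a hyaluronan receptor that also acts at spindle poles, stood at 249 against 161 (1.54-fold). Psrc1, a regulator of microtubule ends, stood at 55.3 against 18.4 (3-fold). Stil, a protein of centriole duplication, stood at 70.7 against 24 (2.94-fold). The vehicle values of Psrc1 and Stil lie near the bottom of the scale. When all values under 32 were raised to 32, their log2 differences went from 1.59 to 0.79 and from 1.56 to 1.14.

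Kif2c, a kinesin that removes tubulin from microtubule ends at centromeres, was the only member above the floor that was lower, at 59 against 60.3 (-0.032). Its other probe set read 28.9 against 15.3, below the floor and higher in the treated sample, and the mean of both gave a difference of 0.41. The direction for Kif2c thus depends on the probe set.

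Mki67 and Top2a, often used to count dividing cells, were both higher. Mki67 encodes the coat protein of mitotic chromosomes and stood at 608 against 453 (1.34-fold, 0.42 on the log2 scale). Top2a, which untangles sister chromosomes, stood at 2540 against 1450 (1.75-fold), with a difference of 0.81 on the log2 scale, and its other probe set differed by 0.83.

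Probe sets of the same gene gave the only repeat measurement. Over all genes, the differences measured by 2 probe sets of a gene departed from each other with an SD of 0.41 (3643 pairs), which covers probe error and not the spread between rats. The members had 15 probe sets besides those used. Of these, 5 were above the floor, and all 5 were higher in the OSU-HDAC42 sample by at least 1.5-fold. However, those of Kif11 (80 against 47) and Cdc20 (79.2 against 46.9) reached the floor on the OSU-HDAC42 array alone. They could thus enter this count only as higher. Of the 10 below the floor, 8 were higher and 2, both of Cdc20, were under 16 on both arrays and gave no value. Differences within the members smaller than that SD, such as between Ccnb1 and Ube2c, cannot be ordered.

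**Figure D3:**
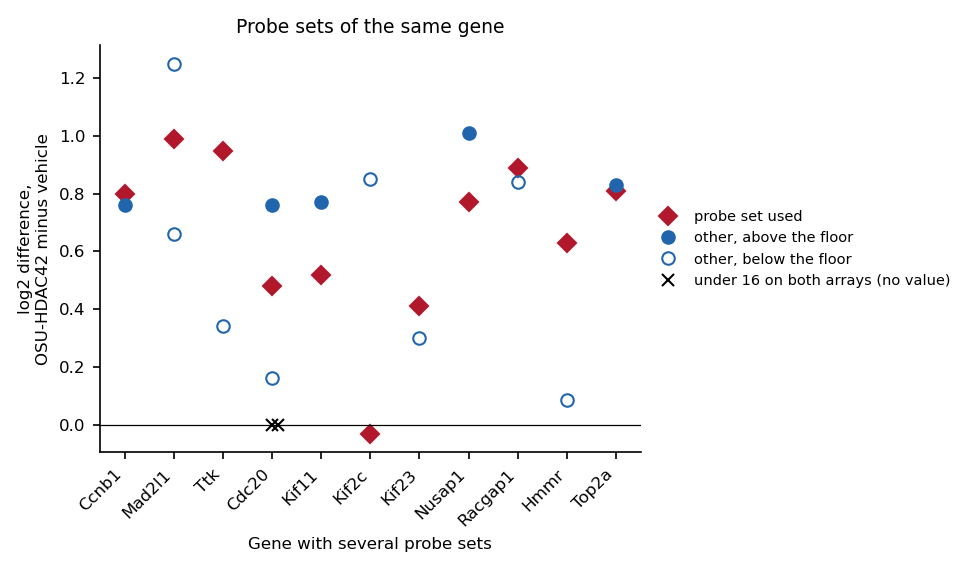
Log2 difference, OSU-HDAC42 minus vehicle (y axis), for each probe set of the 11 members with several. Diamonds mark the probe set used, filled circles others above the floor, open circles others below it and crosses those under 16 on both arrays; the 5 filled circles lie between 0.76 and 1.01, and Kif2c is the only gene with a symbol under 0.

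Members were spread over the intensity range, and their counts are given by range of mean intensity. Below a mean intensity of 100, 5 of 8 members were at least 1.5-fold higher, against 10.9% of all genes in that range, but 3 of those 5, Psrc1, Stil and Mad2l1, reached the floor only where they were high. From 100 to 200 it was 6 of 10 (10.3% of all genes), and from 200 to 400 it was 3 of 5 (8.2%). From 400 to 800 it was 4 of 6 (7.26%), and over 800, where differences of all genes had an SD of only 0.327, it was 3 of 3 (3.65%). Those last genes were Prc1, Nusap1 and Top2a. Ranked by difference among all genes above the floor, 17 of the 32 members lay in the highest 5% and 29 in the highest 25%. Psrc1, Stil and Mad2l1 are among those 17 and, given the floor, could enter this ranking only as higher. Outside the highest 25% were Cenpe, Cdk1 and Kif2c.

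**Figure D4:**
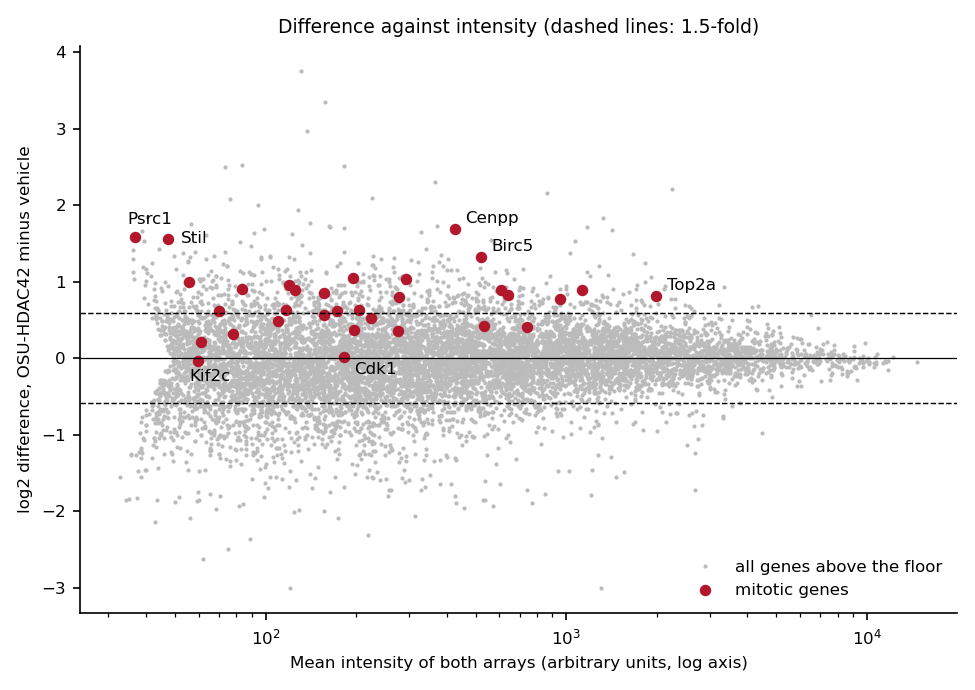
Log2 difference, OSU-HDAC42 minus vehicle (y axis), against the mean intensity of both arrays (x axis, log scale) for the 9561 genes above the floor (grey) and the 32 mitotic genes among them (red); dashed lines mark 1.5-fold. 31 of the red points lie above 0 and 21 at or above the upper dashed line, from Psrc1 at the dim end to Top2a at the bright end.

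Other genes of mitosis were taken from lists put together by function, 151 genes in all with 117 above the floor. Of those, 80 were higher, 36 lower and 1 equal, while 46.7% of all genes above the floor were higher. A gene that reached the floor on 1 array alone could enter such counts only as higher on that array. At least 1.5-fold higher were 30 (25.6%, against 7.59% of all genes) and at least 1.5-fold lower were 2, so that the share lay between that of the members and that of all genes. The lists differed among themselves.

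Of the kinetochore and centromere genes, 24 of 32 were higher, while 46.7% of all genes above the floor were higher. By at least 1.5-fold it was 15 (46.9%, against 7.59% of all genes). None was lower by that amount, against 10.9% of all genes. Ska3, of the complex that holds kinetochores to shortening microtubules, stood at 176 against 71.9 (2.45-fold). Sgo1, the guardian of centromere cohesion, stood at 78.2 against 32.3 (2.42-fold). The inner kinetochore genes Cenpw and Cenpu were 2.34-fold and 2.32-fold higher. Sgo1 and Cenpu (104 against 44.9) reached the floor on the OSU-HDAC42 array alone, so they could count only as higher. Mad1l1, named after its values were seen, reached it on the vehicle array alone (43.2 against 58.1). Ndc80 itself was not measured, but its partners in the microtubule-binding NDC80 complex were, and are named here after their values were seen. Nuf2 differed by 0.79, Spc25 by 0.88 and Spc24 by 0.30.

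Further spindle and centrosome genes were higher in 20 of 26 cases, 5 of them by at least 1.5-fold (19.2%, against 7.59% of all genes). Spag5, which encodes astrin, stood at 88.4 against 44 (2.01-fold), and the chromosome kinesin Kif22 at 197 against 109 (1.8-fold). Spag5 reached the floor on the OSU-HDAC42 array alone. Dlgap5 was 1.61-fold higher and Tacc3 1.55-fold on its brighter probe set, while the mean of the Tacc3 probe sets differed by 0.18. Of 7 cytokinesis genes, 4 were at least 1.5-fold higher (57.1%, against 7.59% of all genes). These were Shcbp1 (2.36-fold), Ect2, the exchange factor that activates RhoA at the furrow (1.79-fold), Septin9 (1.63-fold) and the kinase Cit (1.59-fold).

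Regulators of mitotic entry and exit were higher in 14 of 18 cases, 4 by at least 1.5-fold (22.2%, against 7.59% of all genes). The small CDK-binding proteins Cks1b and Cks2 stood at 318 against 136 (2.33-fold) and 752 against 394 (1.91-fold). The kinase Pbk was 1.78-fold higher and the phosphatase Cdc25a, which removes inhibitory phosphates from CDKs, 1.65-fold. Cdc25a, at 80.3 against 48.6, reached the floor on the OSU-HDAC42 array alone. Thus the cyclins and CKS proteins that bind CDK1 were higher, while the intensity of Cdk1 was nearly equal on both arrays.

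The large complexes that cells also use outside mitosis had smaller differences or lower values. For the anaphase-promoting complex, 6 of 18 genes of the list were higher and 12 lower, with a median of -0.15 above the floor. Grouped after their values were seen, 10 of its 14 core subunits were lower, among them Anapc13 at 706 against 1075 (-0.61), while Cdc26, also a subunit, stood at 577 against 369 (0.64). Pttg1, which encodes securin, the inhibitor of separase, differed by 0.55, and Ube2s, the chain-extending enzyme of the complex, by 0.54. Condensin and cohesin genes had a median of 0.12 above the floor. All 6 condensin genes above the floor were higher, by 0.093 to 0.69, the highest being Ncaph at 106 against 65.3. Of 10 cohesin genes and cohesin regulators 5 were higher and 5 lower, with Smc1a at 355 against 570 (-0.68), Stag1 at -0.51 and the acetyltransferase Esco2 at 0.56.

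**Figure D5:**
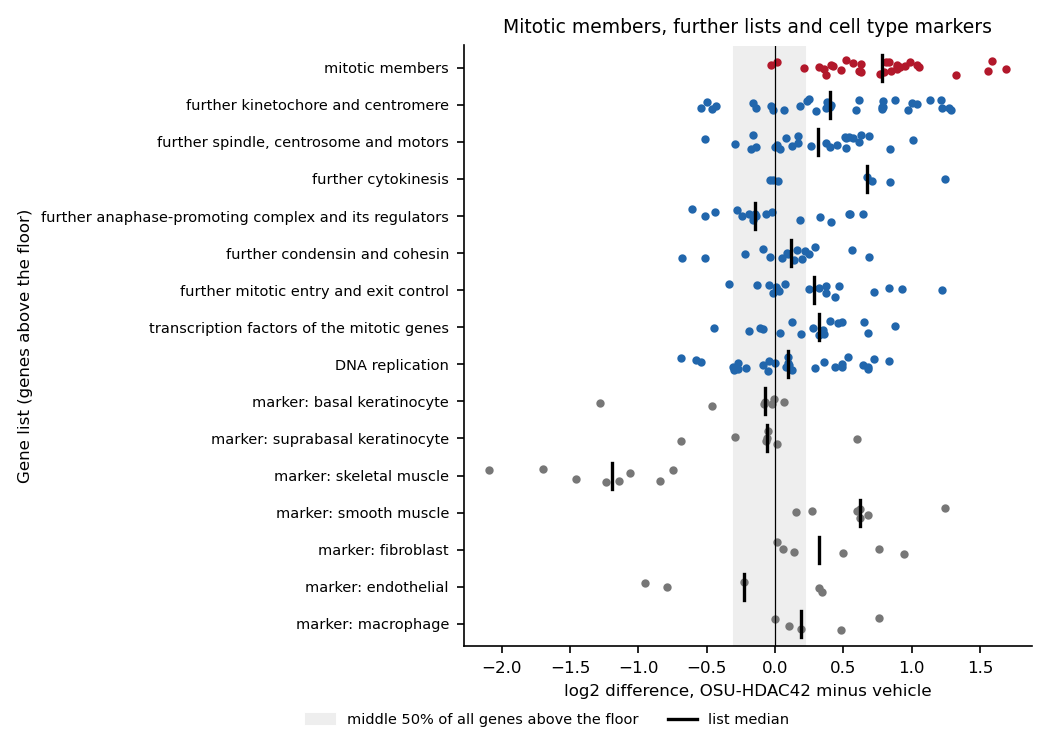
Log2 difference, OSU-HDAC42 minus vehicle (x axis), for genes above the floor in the mitotic members (red), further lists (blue) and cell type markers (grey), with 1 point for each gene, a bar at each list median and the interquartile range of all genes shaded. The median bar of the members stands at 0.79, that of the anaphase-promoting complex list at -0.15, that of DNA replication at 0.094 and that of skeletal muscle markers at -1.19.

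DNA replication genes, which act before mitosis, differed both ways. Of 28 above the floor, 16 were higher, 11 lower and 1 equal, while 46.7% of all genes above the floor were higher. At least 1.5-fold higher were 5 (17.9%, against 7.59% of all genes), and 1 was at least 1.5-fold lower. Gmnn, which encodes geminin, the inhibitor of origin licensing that is present until mitosis, stood at 829 against 466 (1.78-fold). Fen1 was 1.65-fold and the licensing factor Cdt1 1.61-fold higher, while the helicase subunit Mcm3 stood at 34 against 55. Mcm3 reached the floor on the vehicle array alone, so it could count only as lower. In the promoters of this list a CHR was found in 5 of 32 windows (15.6%), near the 13.5% of genes above the floor, whereas the members had 61.3%. An E2F site was found in 15 (46.9%, against 4.08%), and in 1 of the 31 members' windows (3.23%). A CCAAT box was common to both, in 20 windows of this list (62.5%) and 74.2% of the members' windows, against 38.6%. Among further mitosis genes, 65 of 129 windows (50.4%) held a CHR. Of the further mitosis genes above the floor, 41 of 49 with a CHR were higher, with a median of 0.37, and 28 of 51 without one, with a median of 0.079. Over all genes above the floor, 526 of 1080 with a CHR were higher (median -0.012) and 3187 of 6944 without one (median -0.034). These differences were not tested.

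Genes listed as transcription factors of the mitotic genes were higher in 13 of 17 cases, while 46.7% of all genes above the floor were higher. Whether these factors act on the promoters described here was not tested. By at least 1.5-fold it was 3 (17.6%, against 7.59% of all genes). E2f2 stood at 223 against 121 (1.84-fold), E2f5 at 110 against 69.1 (1.6-fold) and the CHR-binding subunit Lin54 at 580 against 369 (1.57-fold). The NF-Y subunit Nfyb differed by 0.49. Foxm1 and Mybl2, named after their values were seen, were below the floor on both arrays, at 21.3 against 23.2 and 33.8 against 34.7, so that no difference could be read from them.

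Marker genes of cell types differed between the same samples. Skeletal muscle markers were lower in 8 of 8 cases, with summed intensities of 7902 against 16906, among them Myl11, Acta1 and Tnni2. Smooth muscle markers were higher in 7 of 7 cases (10979 against 7044 summed, among them Myh11, Actg2 and Tagln), and fibroblast markers in 6 of 6 (20350 against 16264, among them Col3a1, Col1a2 and Col1a1, with Col3a1 going from 0.011 to -0.015 under quantile normalization). The basal keratinocyte markers, from the layer that divides, were higher in 1 of 7 cases (29842 against 30840 summed, log2 differences from -1.28 to 0.063), with Krt14 at 7070 against 6769, Krt15 at 6815 against 6921 and Krt5 at 6116 against 6449. Suprabasal markers were higher in 2 of 7 cases, Ivl (0.60) and Loricrin (0.013), with 54552 against 57908 summed. The other 5 were lower, among them Krt13 (-0.05) and Krt4 (-0.059). Endothelial markers were higher in 2 of 5 cases, Pecam1 (0.32) and Kdr (0.34), with a median log2 difference of -0.23. Tek (-0.23), Egfl7 (-0.79) and Vwf (-0.95) were lower, while the summed intensities were 2614 against 2380. Vwf reached the floor on the vehicle array alone. Of 6 T cell markers only Cd8a was above the floor (153 against 84.5), the others, Cd3e, Cd3d, Cd3g, Cd4 and Cd2, being below it, as were both measured B cell markers, Cd79b and Ms4a1, and both testis markers, Prm1 and Tnp1. Macrophage markers were higher in 4 of 5 cases above the floor, among them Cd163 and C1qa, and Cd68 was equal. Their sums, 805 against 661, include Aif1, which was below the floor. The leukocyte gene Ptprc stood at 64.8 against 60.4. The part that a different mix of layers or cells had in the difference of the mitotic genes was not tested.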

How the data were processed

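Per the series design text and the labels' protocols, RNA of rat esophagus was hybridised to Affymetrix arrays, 1 for each of 2 groups. The authors deposited 1 intensity for each probe set and array, linear as judged from the values themselves. Per the submitters' processing notes the tools were GCOS and RMA, in no stated role, and how the arrays were scaled is not given in the sources used here. A scaling that equalised the arrays would hide a difference in total signal.

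Of 31099 probe sets, 57 controls were left out, and the 20826 annotated to 1 gene were used. Intensities under 16 were raised to 16 before log2 was taken from the deposited values (Python 3.11.15, pandas 2.3.3). A gene counted as 1.5-fold or 2-fold when its brighter array reached the floor, the median over probe sets of the mean log2 value of both arrays. The members and lists were chosen with earlier results of these data known. Every measured member is named; of each further list the 4 largest differences, and of each marker list the 3 brightest genes, are named. The calculation was tested on simulated data. Alternatives changed the raised value, the floor, the probe set rule and the scaling. Precision is limited by the number of arrays, 1 a group, and there was no test and no leave-one-out alternative. Promoters are RefSeq's, the first listed for a gene with several.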

Additional observations from a re-analysis of the deposited data

How the results depend on the processing

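Across the 9 alternatives the median difference of the members stayed between 0.65 and 0.79, and none of the members was at least 1.5-fold lower. This median is over all measured members, and no value used for them lay under 16. Changing the floor or leaving values unraised could therefore not move it. The count of members at least 1.5-fold higher lay between 9 and 22. The lowest count came with the floor at the 75th percentile of intensities, which left 12 members, all 12 higher, 9 by at least 1.5-fold (6.18% of all genes there) and 3 by at least 2-fold. By construction that floor also left fewer genes of the other lists at least 1.5-fold higher: 6 kinetochore and centromere genes, 2 of mitotic entry and exit, 2 of DNA replication, 1 transcription factor, 0 spindle genes and 0 condensin and cohesin genes, with no test run. With the mean over all probe sets of a gene, the cytokinesis median was 0.34 and 0 genes of the anaphase-promoting complex list were 1.5-fold higher; the cause was not tested. The remaining 195 values of lists and 784 of 792 values of named genes moved by less than the spread used, an SD of 0.29 for 1 probe set about its gene, or 1.5 times for counts, and no value past 1.5-fold changed sign. Among smaller differences, Kif2c turned from -0.032 to 0.41 with the mean over probe sets and the fibroblast marker Col3a1 from 0.011 to -0.015 with quantile normalization. The median of all genes stayed at 0 with arrays centred, quantile normalized or with the lowess trend removed. No paired analysis was possible because only 1 array represented either group. Low intensities limit Aurka, Foxm1 and Mybl2, which lay below the floor.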

Other observations

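Of 1080 genes above the floor with a CHR in the promoter window, 97 (8.98%) were at least 1.5-fold higher in the OSU-HDAC42 sample, against 488 of 6944 (7.03%) without one. Of 464 genes with both a CHR and a CCAAT box, 57 (12.3%) were at least 1.5-fold higher, against 528 of 7560 (6.98%) without both. The mitotic genes themselves are among those counted. Without the 36 members, 8.27% of the 568 other genes at least 1.5-fold higher held both elements. Of the 7428 other genes above the floor, 5.4% did. The further mitosis genes were not removed. Of their 29 genes above the floor with both elements, 9 were at least 1.5-fold higher. These shares are descriptions of 1 array a group and were not tested.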
